A study of Mus musculus with 18 samples.

Results

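Axin2 and 9 other genes of the canonical Wnt pathway were followed in epididymal white adipose tissue (eWAT), the fat pad beside the mouse epididymis. The 10 genes are Axin1, Axin2, Ctnnb1, Tcf7l1, Tcf7l2, Lrp5, Lrp6, Znrf3, Sfrp1 and Sfrp2, taken by symbol from the 16452 genes of the deposited count table, in which all 10 were measured. Axin2 was chosen on its higher level in let-7d libraries than in controls, and the others as its pathway partners, with earlier results of these data known. The levels of Axin2 against the controls are therefore given as a description with no test. The counts over the other members describe them and support nothing further.

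The study profiled RNA of whole eWAT from wild-type C57BL/6 male mice of a generation called Fm. By the labels the zygotes behind these mice came from in vitro fertilisation and received a microinjection of miR-let-7d, of miR-let-7e or of a negative control. Mice of all 3 groups ate chow until 6 weeks of age and then a diet labelled LFD until 15 weeks. The samples carry an age of 24 weeks, and the labels do not reconcile these ages. The analysis used 5 control, 6 let-7d and 6 let-7e libraries; control 5 was not analysed here. The labels number the samples but do not say whether those of a group came from separate litters or injection days, so the p-values measure only the spread between these samples. The amount of let-7 delivered, and its level in the adult fat, were not analysed here.

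In the canonical Wnt pathway a secreted Wnt ligand joins a Frizzled receptor to its co-receptor Lrp5 or Lrp6. This inactivates a destruction complex, built on the scaffold Axin1 or Axin2, that otherwise marks beta-catenin (Ctnnb1) for degradation. Stabilised beta-catenin enters the nucleus and acts with TCF/LEF factors such as Tcf7l1 and Tcf7l2. Axin2 is itself a direct target of the pathway in many tissues and feeds back on it, which is why its transcript is often read as a sign of signalling. In fat tissue, canonical Wnt signalling is known as a brake on the formation of new fat cells.

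The injected microRNAs differ from each other at few bases, and both are shown because the seed is what a target transcript would pair with. The mature mouse sequences from RefSeq (GRCm38.p6) are, from 5′ to 3′, with the seed (bases 2 to 8) in capitals:
let-7d-5p: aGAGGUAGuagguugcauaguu
let-7e-5p: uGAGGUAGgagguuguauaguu
Counted from the 5′ end, let-7e differs from let-7d by A1U, U9G and C16U, all outside the seed GAGGUAG that the pair share. The let-7d-5p sequence lies on chromosome 13, bases 48536078 to 48536099 of the minus strand, and let-7e-5p on chromosome 17, bases 17830366 to 17830387 of the plus strand. The reverse complement of the seed, CTACCTC, was searched for on the sense strand of the longest annotated 3′ untranslated region of each measured gene. It was present in 1474 of 14171 genes with such a region (10.4%). Among the members it occurred once, in Tcf7l1, at bases 353 to 359 of a region of 982 bases. The stretch of that Tcf7l1 transcript (GENCODE M21) is shown with the match in capitals, and a match of letters is not evidence of a working site:
Tcf7l1: gagatatctctCTACCTCttctcttcctga
Axin2 held no such match.

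Axin2 stood higher in every let-7d and every let-7e library than in every control. Its levels, in CPM (read counts scaled to a common library size), were 15.1, 15.6, 10.1, 10.9 and 15.2 in control 1, 2, 3, 4 and 6. The lowest, median and highest of the let-7d libraries were 20.8, 26.7 and 44.5 CPM, and those of the let-7e libraries 17.5, 22.7 and 30.1 CPM. The control and let-7 groups thus did not overlap, with a gap between the highest control at 15.6 CPM and the lowest let-7e library at 17.5 CPM. The let-7d and let-7e libraries overlapped each other, and the highest, let-7d 1, stood above the next, let-7d 6, at 36.7 CPM. Mean levels were 13.4 ± 2.65 CPM (SD, n = 5) in controls, 29.6 ± 9.15 CPM (SD, n = 6) with let-7d and 23.3 ± 4.49 CPM (SD, n = 6) with let-7e. With the identifier series as a term, explained below, the log2 fold change against control was 1.08 (SE 0.211) with let-7d and 0.73 (SE 0.210) with let-7e. These comparisons share the 5 controls, so they are not independent of each other. Leaving out each library in turn kept the values between 0.96 and 1.15 for let-7d and between 0.60 and 0.83 for let-7e. Let-7d 1, highest for Axin2, and control 3, lowest, were high in markers of other tissues, given below, whose part was not tested. Without control 3, control 6, let-7d 1 and let-7d 5 together, the let-7d value was 0.95. The let-7e value lay between 0.73 and 0.92 over 8 alternative fits, that one included. For let-7e against let-7d the log2 difference was -0.34 (SE 0.187), given with no test because the let-7d values chose Axin2.

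**Figure D1:**
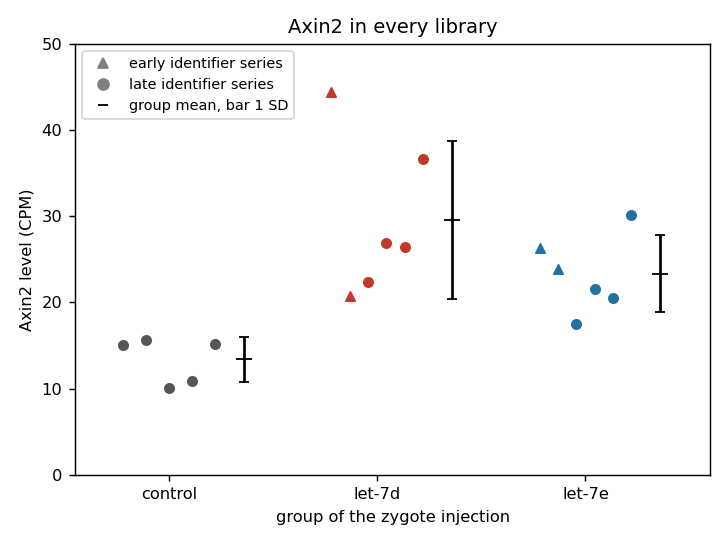
Axin2 level in CPM (vertical axis) for each library of the control, let-7d and let-7e groups (horizontal axis). Points are libraries, triangles those of the early and circles those of the late identifier series, and the bar gives the group mean with 1 SD. The controls sit between 10.1 and 15.6 CPM, and all 12 let-7 libraries sit at 17.5 CPM or more.

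Few genes of the table showed the same order of groups. Every let-7d library was above every control for 29 genes (0.176% of 16452), and every let-7e library was for 41 genes (0.249%). Axin2 was the 1 gene for which both held (0.00608%), and as it was chosen on the let-7d comparison nothing is read from this. No gene of the table passed edgeR's quasi-likelihood test at a Benjamini-Hochberg adjusted p under 0.05 when let-7d (0%) or let-7e (0%) was compared with control, or let-7e with let-7d (0%). At an unadjusted p under 0.05 there were 1676, 1729 and 1097 genes, and DESeq2 called 10, 15 and 14.

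The tissue label was checked against fat cell markers: all 7, among them Adipoq, Plin1 and Lep, were measured and they summed to between 17980 and 38480 CPM in the 17 libraries. Total counts ran from 12717365 to 28972306 a library, and even the members' lowest counts (90 reads, in Sfrp1 and in Znrf3) were well above 0. The labels' sample identifiers form 2 runs of numbers, called here the identifier series, and do not say what separates them. The early series holds let-7d 1, let-7d 2, let-7e 1 and let-7e 2, and the late series the remaining 13 libraries. No control is early, so the series could be compared only within the let-7 groups. Markers of other tissues stood high in a few libraries: absorptive and ciliated epithelium (6 of 6 markers measured) summed to 538 CPM in let-7d 1, 289 in control 3 and 238 in let-7d 5, and to 1.31 to 40.6 CPM elsewhere. Smooth muscle (6 of 6) summed to 13360 CPM in control 3 and to 124 to 602 CPM elsewhere. Epididymis and vas deferens (5 of 6) summed to 17710 CPM in control 3 and to 0.347 to 32.3 CPM elsewhere. Spermatid markers (5 of 5) summed to 1066 CPM in control 6 and to 0.0 to 55.5 CPM elsewhere. In whole tissue, fewer cells of a type and less RNA per cell cannot be told apart.

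The members differed widely in level. Per kilobase of annotated exon, beta-catenin was the most abundant at 67.5 ± 7.19 CPM per kb (SD over all 17 libraries). It was followed by Lrp5 at 15.1 ± 4.09, Tcf7l1 at 10.4 ± 3.20 and Axin1 at 10.3 ± 1.24 CPM per kb. Lrp6 stood at 7.14 ± 0.823, Sfrp2 at 6.94 ± 3.34, Sfrp1 at 5.26 ± 5.32 and Tcf7l2 at 4.46 ± 0.931 CPM per kb. Axin2 came next, at 4.11 ± 1.62 CPM per kb, and the ubiquitin ligase Znrf3 was the least abundant at 1.14 ± 0.367 CPM per kb. At 3 steps of this order the means differed by more than their SDs added together: Ctnnb1 above Lrp5, Axin1 above Lrp6 and Axin2 above Znrf3. The other neighbours did not differ beyond their spread, although Lrp5 was above Tcf7l1 in 17 of 17 libraries. The paralogous scaffolds stood apart in level, Axin1 at 10.8 ± 1.16 and Axin2 at 2.43 ± 0.482 CPM per kb in the controls (SD, n = 5). With let-7d they stood at 9.73 ± 1.47 and 5.38 ± 1.66 CPM per kb (SD, n = 6).

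None of the other 9 members passed the test against the controls in edgeR, where 0% of all genes did, or in DESeq2. Of the 9, 0 had an unadjusted edgeR p under 0.05, beside 10.2% of all genes with let-7d and 10.5% with let-7e. The adjusted p of these 9 ran from 0.512 to 0.963 with let-7d and from 0.522 to 0.927 with let-7e (edgeR). The median log2 fold change over the 10 members was -0.01 with let-7d and 0.08 with let-7e, beside -0.04 over all genes in each comparison. No other member had all its let-7d or all its let-7e libraries above all the controls. Of all genes, 0.176% had every let-7d library above every control, and 0.249% every let-7e library, so nothing is read from this. Between let-7e and let-7d, 0 of these 9 passed, with adjusted p from 0.761 to 0.992.

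The co-receptors Lrp5 and Lrp6, which receive the Wnt signal together with Frizzled, gave no call against the controls. Lrp5 stood at 132, 199.8, 148, 159 and 148 CPM in the controls. Its lowest, median and highest levels were 76.2, 161 and 168 CPM with let-7d and 84.0, 166 and 213 CPM with let-7e, so the groups overlapped. The 4 lowest values were those of the early series, described below. With that series as a term the log2 fold change was 0.05 (SE 0.106) with let-7d and 0.20 (SE 0.107) with let-7e. Without the term these became -0.21 and -0.07, so the sign rests on how the series is treated. Lrp6 lay between 86.1 and 101.1 CPM in controls, between 84.9 and 119.9 CPM with let-7d and between 95.8 and 119 CPM with let-7e. It had a log2 fold change of -0.05 (SE 0.079) and 0.09 (SE 0.078).

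Znrf3, a membrane ubiquitin ligase that removes Frizzled receptors and is itself a feedback target of the pathway in several tissues, did not share the order of Axin2. It stood at 8.76, 6.79, 8.10, 7.04 and 12.2 CPM in controls. The lowest, median and highest levels were 5.53, 8.35 and 17.2 CPM with let-7d and 6.42, 9.25 and 11.7 CPM with let-7e. The groups overlapped, and let-7d 1 was the highest library for Znrf3 as it was for Axin2. The log2 fold change was -0.13 (SE 0.233) with let-7d and -0.18 (SE 0.228) with let-7e.

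The secreted Frizzled-related proteins Sfrp1 and Sfrp2 bind Wnt ligands outside the cell and were the most variable members. Sfrp1 reached 95.3 CPM in let-7d 1 and 67.5 CPM in let-7d 5, while the other 4 let-7d libraries held 6.96 to 9.97 CPM. The controls held 21.7, 15.7, 28.5, 17.1 and 12.6 CPM, and the let-7e libraries 10.6 to 22.0 CPM. The let-7d group thus fell into libraries far above and libraries below all controls, with none between. The pair above the controls were also the let-7d libraries with the highest sums of epithelial markers (538 and 238 CPM, against 2.74 to 39.9 CPM in the other 4), and the part of this in the result was not tested. The log2 fold change with let-7d was 0.40 (SE 0.657) over all libraries, -0.72 without let-7d 5, and -1.24 without the 4 libraries that earlier results found high in markers of other tissues (control 3, control 6, let-7d 1 and let-7d 5). With let-7e it was -0.45 (SE 0.631). Sfrp2 ranged from 10.4 to 26.6 CPM in controls, from 7.57 to 29.3 CPM with let-7d and from 4.63 to 24.6 CPM with let-7e. Its log2 fold changes were -0.07 (SE 0.417) and -0.17 (SE 0.429).

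Among the intracellular members, Ctnnb1, which encodes beta-catenin, had the lowest adjusted p of these members with let-7d, 0.512 in edgeR. It stood at 304, 355, 350.2, 314 and 275 CPM in controls, with a lowest, median and highest of 334, 359 and 449 CPM with let-7d and of 336, 353 and 381.5 CPM with let-7e. The groups overlapped, and let-7d 1 was the highest library. The log2 fold change was 0.19 (SE 0.094) with let-7d and 0.13 (SE 0.094) with let-7e. Axin1, the constitutive scaffold of the destruction complex, lay at 36.5 to 47.3 CPM in controls, 29.4 to 44.6 CPM with let-7d and 33.8 to 43.9 CPM with let-7e. Its log2 fold changes were -0.05 (SE 0.075) and 0.05 (SE 0.075). The difference between the paralogs is a description, since Axin2 was chosen on it.

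The TCF factors read the signal on DNA, and Tcf7l1 mostly represses its targets when beta-catenin is absent. Tcf7l1, the member with the seed match shown above, lay at 36.9 to 55.2 CPM in controls, 19.4 to 52.9 CPM with let-7d and 21.4 to 57.2 CPM with let-7e. With the series as a term its log2 fold change was 0.03 (SE 0.136) with let-7d and 0.10 (SE 0.137) with let-7e; without it, -0.25 and -0.19. Tcf7l2 lay at 31.3 to 50.01 CPM in controls, 29.0 to 50.2 CPM with let-7d and 32.5 to 53.5 CPM with let-7e. Its log2 fold change was -0.18 (SE 0.180) with let-7d and 0.07 (SE 0.183) with let-7e.

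**Figure D2:**
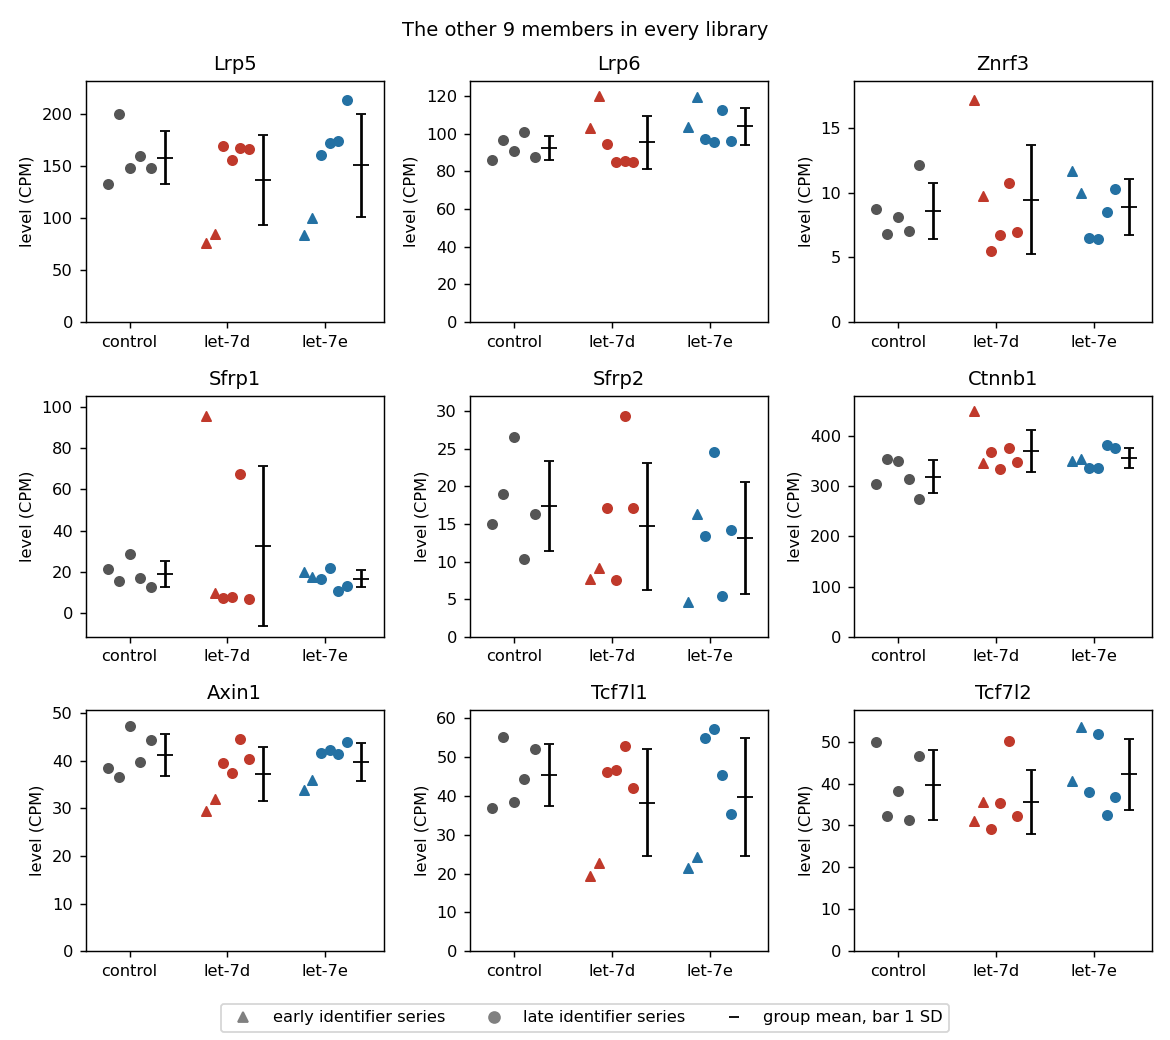
Levels in CPM (vertical axes, from 0 except for Sfrp1, whose SD bar reaches below 0) of the other 9 members in each library by group. Triangles are early and circles late libraries, and bars are group means with 1 SD. The groups overlap for all 9, the early triangles lie below all circles for Lrp5, Axin1 and Tcf7l1, and Sfrp1 shows let-7d 1 and let-7d 5 at 95.3 and 67.5 CPM.

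More members differed between early and late libraries than between groups. Here 4 of 10 members passed the test, 3 lower and 1 higher, where 12.2% of all genes did (5.46% higher and 6.72% lower), 2005 genes in all; DESeq2 called 5, and without the 4 libraries high in other tissues' markers 3 passed, Lrp6 being lost. This comparison was part of how these genes were laid out for study, so nothing is read from the count of 4. Lrp5 held 76.2 and 84.7 CPM in the early let-7d libraries, and 84.0 and 99.5 CPM in the early let-7e libraries. In the 13 late libraries its lowest, median and highest were 132, 166 and 213 CPM. Every early library was below every late one, controls included, and the log2 difference was -0.999 (SE 0.107, edgeR adjusted p = 2.66e-05). Tcf7l1 stood at 19.4, 22.7, 21.4 and 24.2 CPM in the same 4 early libraries and at 35.5, 46.1 and 57.2 CPM (lowest, median and highest) in the late ones. It too was lower in all 4, by a log2 difference of -1.12 (SE 0.138, edgeR adjusted p = 8.62e-05).

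Axin1 showed a smaller difference in the same direction. Its early libraries held 29.4, 32.0, 33.8 and 35.9 CPM, and the late ones 36.5, 41.3 and 47.3 CPM (lowest, median and highest). The log2 difference was -0.34 (SE 0.073, edgeR adjusted p = 0.00575). Every early library was below every late let-7d and let-7e library for 1009 genes (6.13%), Lrp5, Axin1 and Tcf7l1 among them. Every early library was above every late let-7 library for 881 genes (5.35%), none of them a member. Lrp6 was higher in the early libraries, at 103, 119.9, 103 and 119 CPM, than in most late ones, at 84.9, 94.5 and 112 CPM (lowest, median and highest). Its log2 difference was 0.25 (SE 0.075, edgeR adjusted p = 0.0386), the ranges overlapped, and the call was lost when any 1 of 9 of the 17 libraries was left out. The libraries were let-7d 1, 2, 4, 5 and 6 and let-7e 2, 3, 4 and 6, and the adjusted p was then as high as 0.178. Lrp5 and Lrp6, which share their role in the pathway, thus differed in opposite directions.

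Axin2 itself gave no call between the series, with a log2 difference of 0.19 (SE 0.197, edgeR adjusted p = 0.613). Among let-7d libraries its level was 32.6 ± 16.8 CPM (SD, n = 2) in early and 28.1 ± 6.05 CPM (SD, n = 4) in late libraries, and within let-7e at 25.1 ± 1.77 and 22.4 ± 5.42 CPM. Over the late libraries alone, which hold all 5 controls, the let-7d and let-7e means were thus still above the controls' 13.4 CPM. Znrf3 missed the threshold at 0.65 (SE 0.216, edgeR adjusted p = 0.0610). It passed with DESeq2 (0.0273), among genes of at least 5 CPM on average (0.0459), and without control 6 (0.0392), let-7d 5 (0.0331) or let-7e 6 (0.0356). Leaving out each library gave 0.425 (without let-7d 1, its highest library) to 0.755, with an edgeR adjusted p as high as 0.3205. Among let-7 libraries endothelial markers moved with the series, and 3 of 6 passed, all lower. Their sum was 846 to 1200 CPM in early against 1262 to 1638 CPM in late let-7 libraries. In the controls, all late, it was 843 to 1486 CPM, which overlapped the early range. Fibroblast and fat cell progenitor markers summed to 2035 to 2256 CPM in early against 2414 to 3025 CPM in late let-7 libraries. The controls, at 1869 to 2749 CPM, overlapped the early range here too. Of these 8 markers 1 passed, where 12.2% of all genes did, and 3 had a positive difference. Of the fat cell markers 1 of 7 passed, and their sums overlapped. The part of these markers in the differences of Lrp5, Tcf7l1 and Axin1 was not tested.

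**Figure D3:**
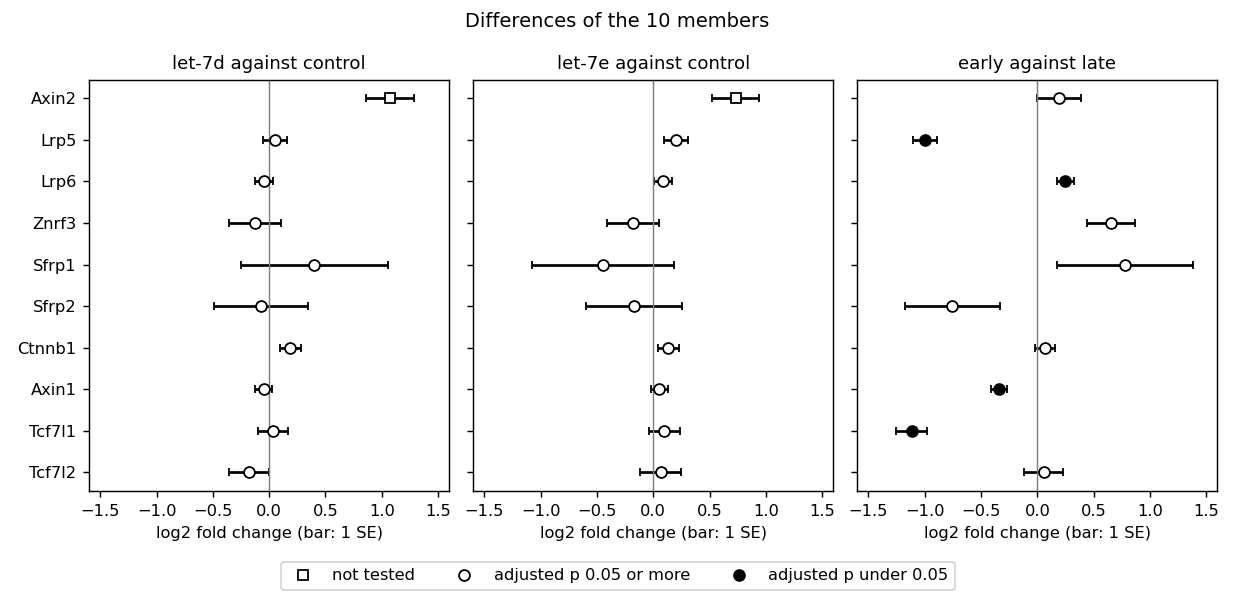
Log2 fold change (horizontal axis, bars 1 SE) of the 10 members (vertical axis) for both let-7 groups against control and for early against late libraries. Squares were not tested, open circles did not pass and filled circles passed an adjusted p of 0.05. Axin2 stands at 1.08 and 0.73 against control with the other 9 near 0, whereas Lrp5, Lrp6, Axin1 and Tcf7l1 carry the filled circles of early against late.

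Whether the members follow Axin2 was asked of the spread that remained within groups, since Axin2 was chosen on a difference between groups. The members were chosen with earlier results of these data known, so the choice may not be wholly independent of that spread. The log2 CPM of each member was set against that of Axin2 over the 17 libraries after group and series were taken out, 9 relations in all. In that fit the largest were a positive one with Znrf3 and a negative one with Lrp6. Znrf3 had r = 0.56 (permutation p = 0.0925) and rho = 0.47 (permutation p = 0.173). Lrp6 had r = -0.52 (permutation p = 0.0689) and rho = -0.58 (permutation p = 0.0256). Let-7d 1 and let-7d 2 lay farthest from the median of Axin2 after group and series were taken out. Without them r was 0.42 for Znrf3 and -0.44 for Lrp6. In the late libraries alone r was 0.41 and -0.43.

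For the other 7 members r lay between -0.31 (Tcf7l1) and 0.27 (Ctnnb1), with permutation p from 0.271 to 0.952. Axin1, the paralog of Axin2, had r = -0.27 (permutation p = 0.333) and rho = -0.28 (permutation p = 0.373). The r of Ctnnb1 was -0.10 without let-7d 1 and let-7d 2, and that of Sfrp1 went from 0.23 to -0.22, so the positive values of both rest on those libraries. Sfrp2, Lrp5 and Tcf7l2 had r of -0.05, 0.16 and 0.02. Fitted across the table, the slope of a gene's level on that of Axin2 passed the adjusted threshold for 0 of 16451 genes (0%) in edgeR, and 406 had an unadjusted p under 0.05. The slope of Znrf3 was 0.62 (SE 0.249), that is 0.62 log2 units for each log2 unit of Axin2, at an unadjusted p of 0.0261 and an adjusted p of 1.0 (edgeR). No member thus passed as following Axin2.

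**Figure D4:**
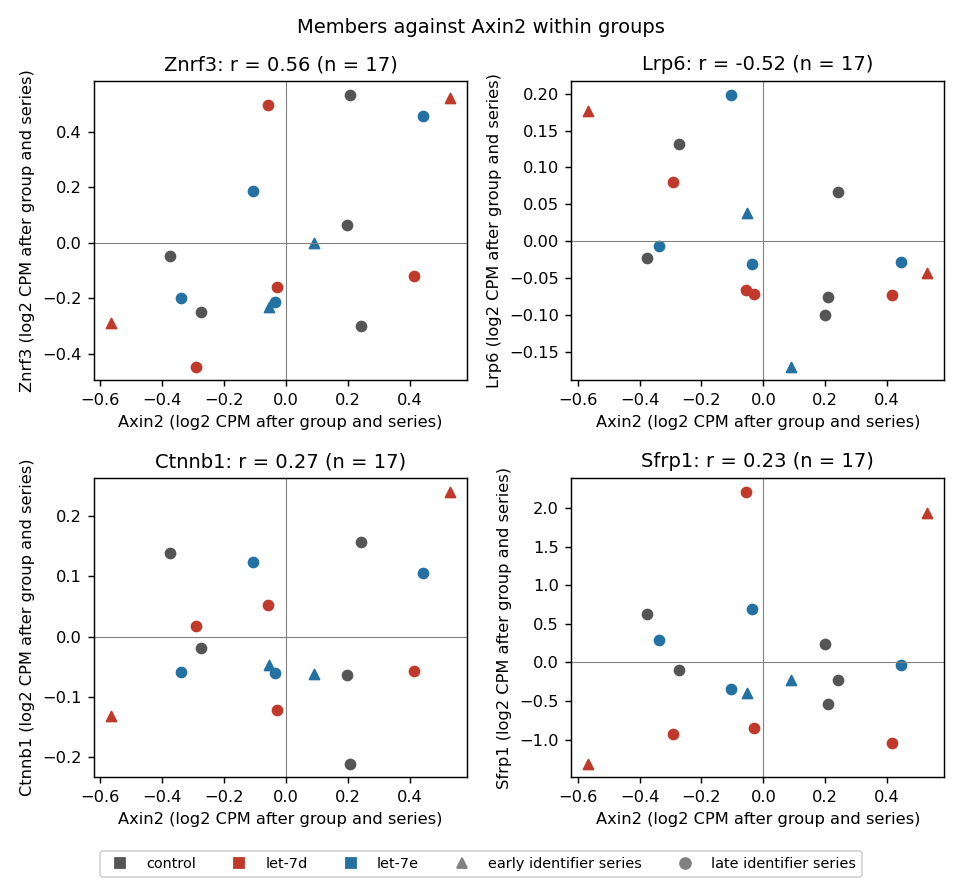
Log2 CPM of Znrf3, Lrp6, Ctnnb1 and Sfrp1 (vertical axes) against that of Axin2 (horizontal axes) after group and series were taken out, 17 libraries in each panel. Colours give the group, and triangles mark early libraries. Let-7d 1 and let-7d 2 lie at the right and left ends of Axin2, and r goes from 0.56 for Znrf3 to -0.52 for Lrp6.

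The genes whose level ran most closely with Axin2 across the table were named by the size of r. The ranking covered 13338 genes, those averaging 1 CPM or more with predicted genes left out. They were Ldlrad4 (r = 0.81), Prdm16 (0.79), Pnrc2 (0.76), Tnfrsf12a (0.73) and Zfp763 (0.73), each over 17 libraries. Prdm16 encodes a transcription factor of thermogenic fat cells, Ldlrad4 a membrane protein that limits TGF-beta signalling, Pnrc2 a nuclear receptor coactivator and Tnfrsf12a the receptor of the cytokine TWEAK. Without let-7d 1 and let-7d 2 their r was 0.54 (Pnrc2) to 0.75 (Prdm16). The slope on Axin2 had an adjusted p of 1.0 for each of the 5. None of the 5 passed against the controls (edgeR). The log2 fold change with let-7d was 0.25 (SE 0.111) for Pnrc2, 0.21 for Prdm16, 0.18 for Tnfrsf12a, 0.09 for Ldlrad4 and 0.02 for Zfp763. With let-7e it was 0.03, 0.06, 0.20, 0.07 and -0.11 in the same order.

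Other genes of the pathway were taken from 6 lists made from textbook knowledge, 97 genes without the members, of which 75 were measured. None of the 75 passed between any of the 3 groups in edgeR or DESeq2. At an unadjusted edgeR p under 0.05 there were 4 (let-7d with control), 9 (let-7e with control) and 6 (let-7e with let-7d). The shares of all genes at that threshold were 10.2%, 10.5% and 6.67%, so nothing is read from these counts. For none were all let-7d or all let-7e libraries above all controls, beside 0.176% and 0.249% of all genes, so nothing is read from this. Their median log2 fold change was -0.01 with let-7d and -0.03 with let-7e, beside -0.04 over all genes. Of 75, 35 had a positive log2 fold change with let-7d and 34 with let-7e. Without control 3 these counts were 49 and 50, and the medians 0.09 and 0.05.

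The ligands and their secretion machinery (13 of 21 measured) included the smallest p with let-7d. Wnt5b, a ligand mostly of the beta-catenin independent branch, averaged 6.56 ± 2.38 CPM (SD, n = 6) with let-7d and 3.52 ± 1.72 CPM (SD, n = 5) in controls, a difference of 0.92 on the log2 scale (SE 0.332, edgeR adjusted p = 0.456). The let-7e libraries held 3.99 ± 0.646 CPM (SD, n = 6). Among receptors and the R-spondin axis (16 of 22), the Wnt receptor Fzd1 stood at 36.3 ± 6.39 CPM with let-7d and 51.7 ± 8.58 CPM in controls, or -0.45 on the log2 scale (SE 0.171, edgeR adjusted p = 0.461). The receptor Fzd4 stood at 614 ± 69.7 CPM with let-7e and 436 ± 94.7 CPM in controls, or 0.42 on the log2 scale (SE 0.145, edgeR adjusted p = 0.365). The other genes with the 3 smallest p in a direction were, with let-7d, the receptor Fzd5 (0.48, SE 0.188) and the beta-catenin coactivator Bcl9l (0.28, SE 0.140), and on the lower side the R-spondin Rspo3 (-2.38, SE 1.04) and the casein kinase Csnk1a1 (-0.13, SE 0.065). The value of Rspo3 rests on control 3, which held 25.3 CPM where the control median was 0.736 and the let-7d median 0.922 CPM; without control 3 it was 0.60. With let-7e they were Bcl9l (0.36, SE 0.140) and Apcdd1 (0.46, SE 0.198), and on the lower side Csnk1a1 (-0.17, SE 0.066), the ligand Wnt6 (-2.21, SE 0.873) and Rnf43 (-3.28, SE 1.38). Rnf43 stood at 11.9 CPM in control 3 and had medians of 0.433 CPM in controls, 0.556 with let-7d and 0.267 with let-7e. Its let-7e difference was -0.62 without control 3, and 0.42 without the 4 libraries high in other tissues' markers; that of Wnt6 without the 4 was -1.01. For let-7e against let-7d, Fzd1 (0.45, SE 0.154), Chd8 (0.11, SE 0.053) and Apc (0.13, SE 0.067) had the smallest p among positive differences. Among negative ones it was Wnt5b (-0.72, SE 0.297), Dkk3 (-1.18, SE 0.491) and Rnf43 (-3.05, SE 1.28). Rnf43 was highest in let-7d 1 and let-7d 5, at 14.7 and 7.68 CPM. Its difference was -1.70 without let-7d 5 and 0.001 without the 4 libraries, that of Dkk3 -0.37 without the 4, and that of Wnt5b -0.47 without let-7d 1. None of these differences passed.

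Axin2 can be set beside other genes commonly read as feedback or target genes of the pathway, of which 11 of 16 were measured. Their median log2 fold change was -0.17 with let-7d and -0.41 with let-7e, and 0 of 11 passed in edgeR or DESeq2. An unadjusted edgeR p under 0.05 was held by 0 with let-7d and 3 with let-7e, beside 10.2% and 10.5% of all genes. The lowest adjusted p was 0.536 and 0.423 (edgeR). Of the 11, 5 were higher and 6 lower with let-7d, and 2 were higher and 9 lower with let-7e. These directions depended on the libraries kept. Without control 3, 8 were higher and 3 lower with let-7d (median 0.25). Without let-7d 3, let-7d 4 or let-7d 6, 6 were higher and 5 lower with let-7d (medians 0.018, 0.109 and 0.085). With let-7e more stayed lower without control 3, at 5 higher and 6 lower (median -0.09). Without the 4 libraries 7 were higher and 4 lower with let-7d (median 0.31). With let-7e 8 were then higher and 3 lower (median 0.18). The cell cycle gene Ccnd1 stood at 46.0 ± 48.8 CPM (SD, n = 5) in controls, 35.9 ± 16.1 with let-7d and 32.0 ± 4.36 with let-7e (SD, n = 6). Control 3 alone held 133 CPM, and the medians ran the other way, at 25.9, 31.6 and 32.9 CPM. Its log2 fold changes were -0.48 with let-7d and -0.63 with let-7e, and 0.47 and 0.32 without control 3. On average, the transcription factor Myc stood at 13.9, 11.6 and 12 CPM, and the dishevelled antagonist Nkd1 at 35.5, 40.8 and 29.7 CPM. Apcdd1, a membrane inhibitor of Wnt, was the most abundant of them at 263, 317 and 337 CPM, or 0.37 (SE 0.198) and 0.46 (SE 0.198) on the log2 scale against control. Rnf43, the close relative of Znrf3, and the nuclear factors Lef1 and Tcf7 averaged under 3 CPM over the libraries, and their differences had SEs of 0.68 to 1.38. Within groups, r with Axin2 ran from -0.36 (Cd44) to 0.28 (Notum) over the 11. Over all 75 pathway genes r had a median of 0.07, beside -0.01 over all genes, and 1 gene exceeded 0.5, Wnt5a at 0.58, where 1.56% of all genes did. On the negative side 1 gene was under -0.5, the corepressor Tle1 at -0.66, where 1.79% of all genes were.

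**Figure D5:**
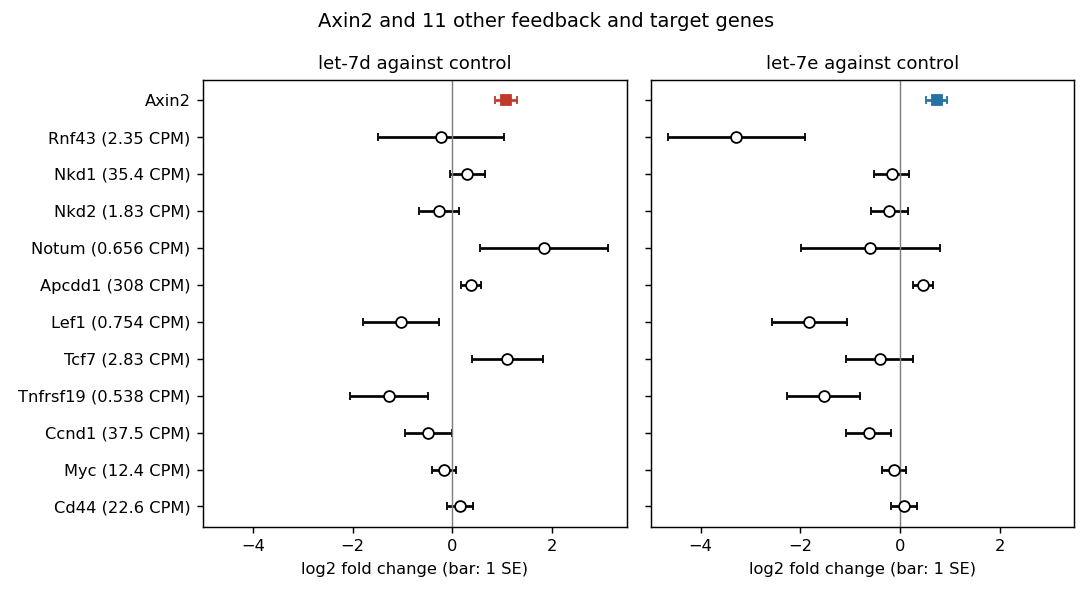
Log2 fold change (horizontal axes, bars 1 SE) of Axin2 (filled squares, not tested) and of 11 other feedback and target genes (open circles, none past an adjusted p of 0.05), with each gene's mean level over 17 libraries. Axin2 stands at 1.08 and 0.73, and the others have medians of -0.17 with let-7d and -0.41 with let-7e, which were 0.25 and -0.09 without control 3.

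Early and late libraries differed in more of the pathway. Of the 75 genes 15 passed, 6 higher and 9 lower, beside 12.2% of all genes. The list of the cytoplasmic relay and destruction complex held 10 of these among its 20 genes, 5 higher and 5 lower. Without let-7d 1, and likewise without let-7e 2, 9 of the 75 and 6 of the 20 passed. The count over all genes fell too, from 2005 to 1260 without let-7d 1. The summed endothelial markers, and those of fibroblasts and fat cell progenitors, were lower in early than in late let-7 libraries. The late controls overlapped the early range of both, as given above. Their part in these differences was not tested. The 2 forms of glycogen synthase kinase 3, which phosphorylate beta-catenin in the complex, differed in opposite directions. Gsk3b was higher in the early libraries, with a log2 difference of 0.48 (SE 0.071, adjusted p = 0.000389, edgeR). Gsk3a was lower, by a log2 difference of -0.65 (SE 0.091, adjusted p = 0.000226, edgeR), at 45.8 ± 7.10 CPM in the 4 early and 73.6 ± 6.04 CPM in the 13 late libraries (SD). Amer1, which helps assemble the complex at the membrane, was higher at 1.04 (SE 0.219, adjusted p = 0.00502). Tnks2, a tankyrase that promotes the turnover of axin proteins, was higher at 0.27 (SE 0.059, adjusted p = 0.00603). Lower were the receptor Fzd8 at -0.74 (SE 0.129, adjusted p = 0.00139) and the casein kinase Csnk1g2 at -0.61 (SE 0.124, adjusted p = 0.00389). None of the ligands and none of the 11 feedback and target genes passed between the series, where 12.2% of all genes did. Nothing is read from these counts. The 11 had a median log2 difference of 0.58, 8 higher and 3 lower in early libraries, beside 0.004 over all genes. Without the 4 libraries high in other tissues' markers the median was 0.39, with 7 higher and 4 lower.

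By position (GRCm38), Axin2 (ENSMUSG00000000142.15) spans bases 108920349 to 108950783 of chromosome 11 on the plus strand. Znrf3 (ENSMUSG00000041961.14) lies on the same chromosome, at 5276324 to 5444847 on the minus strand. Lrp5 (ENSMUSG00000024913.16) spans 3584828 to 3686564 of chromosome 19 and Tcf7l1 (ENSMUSG00000055799.13) 72626378 to 72789254 of chromosome 6, both on the minus strand. Axin1 (ENSMUSG00000024182.16) spans 26138688 to 26195811 of chromosome 17 on the plus strand, and Lrp6 (ENSMUSG00000030201.15) 134446476 to 134566965 of chromosome 6 on the minus strand. The remaining members are Ctnnb1 (ENSMUSG00000006932.17, chromosome 9), Tcf7l2 (ENSMUSG00000024985.20, chromosome 19), Sfrp1 (ENSMUSG00000031548.7, chromosome 8) and Sfrp2 (ENSMUSG00000027996.13, chromosome 3).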

How the data were processed

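The authors deposited raw counts of reads, as whole numbers by Ensembl identifier, for 17 libraries; per the submitters' processing notes, alignment used STAR and the build was GRCm38.p6. The counting tool, its strand setting and the CPM filter's threshold are not given in the sources used here. A deposited table named for RPKM was not used, because the gene length it implies differs over 10-fold between libraries for 99.9% of genes. Symbols came from GENCODE M21, which matched 16438 of 16452 identifiers, 15941 with the version. The 14 others were kept in the tests.

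In R 4.3.3, counts were scaled with TMM and fitted with edgeR 4.0.16 (quasi-likelihood, two-sided, Benjamini-Hochberg over all genes, threshold 0.05) to 17 libraries, with group and identifier series as terms. CPM are TMM-scaled; 2 was the prior count on the log2 scale. Group means do not account for the series; fold changes do. Relations with Axin2 used 100000 permutations of Axin2 within group and series, two-sided. Alternatives used DESeq2 1.42.0 and limma 3.58.1. The scripts were tested on simulated data. Total counts of 12717365 to 28972306 set the counting precision. No pair of libraries of a group agreed within sampling noise.

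The members, the pathway and marker lists and the alternatives were chosen with earlier results of these data known. The text names all members. Pathway genes are named by the 3 smallest p in each direction of a comparison, at a mean of at least 1 CPM. Feedback and target genes named for their levels, Wnt5a, Tle1 and single markers were chosen after their values were seen.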

Additional observations from a re-analysis of the deposited data

Results flagged for a closer look

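Of 30 sets tested (10 genes in 3 groups), 2 had a library far from the others of its group by Dixon's criterion, which chance meets in about 1 of 20 groups. Ctnnb1 stood at 449.3 CPM in let-7d 1, against 334 to 376.6 CPM in the other let-7d libraries. Tcf7l2 stood at 50.17 CPM in let-7d 5, against 29.0 to 35.6 CPM in the others. Both libraries were also those with the highest summed epithelial markers of their group (538 and 238 CPM), whose part was not tested.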

How the results depend on the processing

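The counts of genes past the threshold stayed at 0 against the controls and between let-7d and let-7e under the edgeR alternatives, and were 10 (let-7d), 15 (let-7e) and 14 (let-7e against let-7d) with the DESeq2 Wald test. For early against late, 44 genes passed with the replicate number as a block, against 2005 without it, and 1260 to 2326 with each library left out, the lowest without let-7d 1. The block took the calls of Tcf7l1 (adjusted p = 0.0742), Axin1 (0.709) and Lrp6 (0.317) and kept that of Lrp5. Within the let-7 groups the early libraries are exactly those numbered 1 and 2, so the block overlaps the series there. With the block, the series term could be estimated only through the late control 1 and control 2. The early against late values with the block are therefore no test of the series, and nothing is read from them. Replicate numbers did not pair the samples: of 16 same-numbered pairs 3 correlated over 0.1 (range -0.313 to 0.638), and 2 had their own number highest. Lrp6 also lost its call without the 4 libraries high in other tissues' markers (0.107). Differences of early against late that were not called changed sign: Axin2 to -0.224 with the block and -0.049 without the 4 libraries (-0.048 to 0.363 leaving out each library), Ctnnb1 to -0.018 without the 4 (-0.028 to 0.118), Sfrp1 (-0.192 to 1.598) and Tcf7l2 (-0.075 to 0.153). Of the relations with Axin2, r changed sign for Sfrp1 (-0.227 late only, -0.177 without the 4, -0.221 without let-7d 1 and 2, -0.137 to 0.385 leaving out each), Sfrp2 (0.24 block, 0.052 late only, 0.144 without the 4, -0.125 to 0.056), Axin1 (0.11 without the 4), Ctnnb1 (-0.097 late only, -0.099 without let-7d 1 and 2, -0.085 to 0.432), Tcf7l1 (0.089 block), Tcf7l2 (-0.174 block, -0.073 to 0.15) and Lrp5 (-0.03 to 0.296). With the block r was 0.736 for Ctnnb1, 0.575 for Sfrp1, 0.525 for Lrp5, 0.439 for Znrf3 and -0.186 for Lrp6. Pathway and target genes were refitted as an alternative chosen after seeing the data, and these differences, none called, changed sign. Without the 4 libraries, Ccnd1 stood at 0.257 (let-7d) and 0.467 (let-7e), Rnf43 at 0.42, 0.421 and 0.001 (let-7e against let-7d), and, with let-7e, Nkd2 at 0.283, Notum at 2.301 and Tcf7 at 0.178. Leaving out each library gave, with let-7d, Ccnd1 -0.667 to 0.469, Rnf43 -1.983 to 2.445, Rspo3 -3.102 to 0.601 and Tnfrsf19 -1.606 to 0.023, the highest of each without control 3. With let-7e it gave Ccnd1 -0.815 to 0.32 and Notum -1.477 to 0.85 (highest without control 3), Cd44 -0.172 to 0.241 and Nkd1 -0.508 to 0.062 (without control 2), and Myc -0.323 to 0.036 and Nkd2 -0.401 to 0.011 (without control 6). The cause of these changes was not tested. Of 2120 values, 2032 stayed on their side of the threshold or within the replicate spread.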
